A study of Homo sapiens with 2 samples.

Results

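The genes of NF-kappaB itself were examined in FaDu cells, a human cell line grown from a squamous carcinoma of the hypopharynx. They were 5 genes for the DNA-binding subunits (NFKB1, NFKB2, REL, RELA and RELB) and 5 grouped here as inhibitors that the factor induces (NFKBIA, NFKBIE, NFKBIZ, TNFAIP3 and BIRC3). They were picked by gene symbol, and all 10 were found among the 16951 genes of the deposited table. Per the labels, the study sequenced total RNA at day 2 from cells carrying an shRNA against KIF2C, a kinesin that takes microtubule ends apart, and from cells carrying a control shRNA, with 1 library of each. The series text describes the control cells as transfected with blank vectors, and the sources do not say whether they were clones or pools. The table names its libraries D1 and C1, and no label says which code is the knockdown.

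KIF2C had 3036 reads in library D1 and 783 in library C1, and read as control and knock-down the letters C and D would point the other way. The libraries are therefore called by their codes, each difference is D1 against C1, and none is given as an effect of the knockdown. Library D1 held 18560030 rounded counts and library C1 18189744. Squamous markers were present in both libraries, at a summed 5099 TPM in D1 and 2157 TPM in C1 over 10 genes. Of these, 7 were at least 2-fold higher in D1, beside 2.4% of all genes past the expression filter given below. The other 3, EPCAM, CDH1 and JUP, had log2 ratios of -0.08, -0.19 and 0.24. Most of both sums came from KRT5 (2061 TPM in D1 and 336 TPM in C1) and KRT17 (1598 TPM in D1 and 835 TPM in C1). TPM, transcripts per 1000000, is the authors' value corrected for transcript length. Of the 7 leukocyte markers in the table none was at 0, with a summed 81.5 TPM in D1 and 93.7 TPM in C1, most of it from CD68, and the pan-leukocyte gene PTPRC was at 0.75 TPM in D1 and 1.25 TPM in C1. The 5 fibroblast markers summed to 5.05 TPM in D1 and 7.23 TPM in C1, with COL3A1 and PDGFRB at 0 in C1. The 3 endothelial markers summed to 7.40 TPM in D1 and 29.2 TPM in C1, nearly all from CDH5. The part that other cells might have in the results below was not tested, and in bulk RNA fewer cells of a type and less RNA per cell cannot be told apart.

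NF-kappaB is a family of dimers that stay in the cytoplasm while bound to inhibitors of the IkappaB family. Signals from receptors of tumour necrosis factor, interleukin-1 or microbial products activate the IkappaB kinases, the inhibitor is degraded, and the dimer enters the nucleus and binds kappaB sites in DNA. Among the genes it induces are its own inhibitors, which end the response, and several of its subunits. In squamous epithelium the pathway drives cytokines of inflammation and survival genes.

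Because several members are known targets of the factor, their promoters were searched for kappaB matches, which are printed here for each of the members that had them. The motif searched was the classical kappaB consensus of 10 bases, on both strands, in the RefSeq windows of GRCh38.p14 that run from 250 bases before to 50 bases after each annotated start. Windows were held for 8 of the 10 members, and 7 of these genes carried at least 1 match. Over all genes of the table with a window, 2292 of 13560 (16.9%) carried one, and over all 35116 windows 11.3% did. RELA was the member without a match in either of its 2 windows. NFKBIE and RELB had no entry. Each line below gives the gene, its strand and the bases on that strand, with the kappaB match in capitals. Matches found on the opposite strand are printed as they read on the gene's strand, and overlapping matches are printed once. Of the 4 separate matches of NFKB2 and the 2 of NFKBIZ, spread over several annotated starts, 1 is printed for each gene.

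BIRC3, chr11:102317260-102317319, plus strand: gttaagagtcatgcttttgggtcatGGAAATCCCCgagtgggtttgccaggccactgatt
BIRC3, chr11:102317324-102317383, plus strand: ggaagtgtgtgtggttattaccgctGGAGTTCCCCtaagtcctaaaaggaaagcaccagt
NFKBIZ, chr3:101827742-101827801, plus strand: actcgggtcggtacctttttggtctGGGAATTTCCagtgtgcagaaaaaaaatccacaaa
NFKBIA, chr14:35404796-35404855, minus strand: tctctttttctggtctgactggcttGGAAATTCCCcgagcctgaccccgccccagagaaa
TNFAIP3, chr6:137867182-137867211, plus strand: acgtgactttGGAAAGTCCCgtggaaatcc
TNFAIP3, chr6:137867194-137867223, plus strand: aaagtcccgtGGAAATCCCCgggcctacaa
REL, chr2:60881517-60881546, plus strand: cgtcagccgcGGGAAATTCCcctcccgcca
NFKB1, chr4:102501300-102501329, plus strand: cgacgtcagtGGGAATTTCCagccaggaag
NFKB2, chr10:102394461-102394490, plus strand: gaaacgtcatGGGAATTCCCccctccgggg

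The matches lay from 199 to 190 and from 135 to 126 bases before the annotated start in BIRC3, from 81 to 72 in NFKBIA, and from 67 to 58 and 55 to 46 in TNFAIP3. Those of REL and NFKB1 lay from 47 to 38 and from 49 to 40 bases before their starts. NFKBIZ carried its printed match from 223 to 214 bases before the start, and another from 239 to 230 bases before a second annotated start. NFKB2 had matches before 2 of its 3 annotated starts. The matches printed for TNFAIP3 and NFKB2 lie inside the gene spans given below, so those starts are not the first bases of these spans. The match GGAAATCCCC was the same in BIRC3 and TNFAIP3. A match describes these letters only and does not show that the factor was bound there.

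The 5 inhibitors parted from each other between the libraries more widely than the 5 subunits did, through BIRC3 and NFKBIZ. BIRC3 and NFKBIZ were lower in D1, NFKBIA was slightly lower, and NFKBIE and TNFAIP3 were slightly higher. The log2 ratios of NFKBIA, NFKBIE and TNFAIP3 were no larger in size than those of the subunits REL and NFKB2. Of the 10 members, 1 was at least 2-fold lower in D1 and none was 2-fold higher. Over the 13225 genes at 1 CPM (counts per 1000000 reads) or more in at least 1 library, 4.54% were at least 2-fold lower in D1 and 2.4% at least 2-fold higher. At 10 CPM or more, a level that all 10 members reached, the shares were 2.19% and 1.74%. The split of all 2-fold genes was 318 higher and 601 lower, and with plain library totals in place of TMM scaling it was 240 higher and 742 lower. Of the members, 5 lay below 0 on the log2 scale, and over all genes 49% did. With plain totals it was 6 members and 61.9% of genes. With 1 library per group there is no test, and each interval below covers counting error only. Every ratio between libraries is on TMM-scaled counts, and the median of all genes was 0.01 on the log2 scale, or -0.11 with plain totals.

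BIRC3, an inhibitor of apoptosis that ubiquitinates proteins of the tumour necrosis factor receptor complex, differed most. It had 416 reads in library D1, against 1292 in library C1. The deposited TPM was 6.70 in D1 and 21.69 in C1, so the scale per length gave a difference like that of the reads. The log2 ratio was -1.54 (95% counting interval -1.71 to -1.38), and from the lowest ratio upward BIRC3 took place 218 of the 13225 genes. It spans 102317484 to 102339403 on chromosome 11 (GRCh38.p14, as for all positions here). Its estimated counts were fractions, as were 48.2% of all values in D1 and 48.9% in C1. Reads may be split with its near copy BIRC2, which the fractions alone do not show.

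NFKBIZ encodes a nuclear IkappaB protein that works with NF-kappaB at some promoters, among them those of IL6 and LCN2, rather than holding it in the cytoplasm. It had 420 reads in D1 and 892 in C1, and 11.97 TPM in D1 and 26.70 TPM in C1. The log2 ratio of -0.996 (-1.17 to -0.83) fell just short of 2-fold as scaled, and passed it with plain library totals (-1.11) and in the deposited TPM (-1.16). It took place 608 from the lowest ratio. The gene lies on chromosome 3 from 101827990 to 101861022.

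NFKBIA, the first IkappaB protein to be resynthesised after a signal, was the most abundant inhibitor. It had 2670 reads in D1 and 3229 in C1, and 194 TPM in D1 and 245 TPM in C1. Its log2 ratio was -0.18 (-0.26 to -0.11), far smaller than those of BIRC3 and NFKBIZ. The gene lies on chromosome 14 from 35401513 to 35404749.

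TNFAIP3, an enzyme that edits ubiquitin chains and so shuts off signalling from receptors, went the other way. It had 2473 reads in D1 and 2132 in C1, and 59.11 TPM in D1 and 53.19 TPM in C1. The log2 ratio was 0.30 (0.22 to 0.39), and with plain totals it was 0.18. The gene lies on chromosome 6 from 137866349 to 137883312. Of the 45 pairs among the 10 genes, TNFAIP3 and BIRC3 differed most in their ratio to each other, as the members with the highest and lowest log2 ratios. BIRC3 had 0.168 reads per read of TNFAIP3 in D1, against 0.606 in C1. NFKBIE, a slower IkappaB protein, was the scarcest of the inhibitors by reads, with 286 in D1 and 256 in C1. It was at 13.69 TPM in D1 and 12.78 TPM in C1, and its log2 ratio of 0.25 had an interval that reached nearly to 0 (0.0015 to 0.50). The gene lies on chromosome 6 from 44258166 to 44265551.

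**Figure D1:**
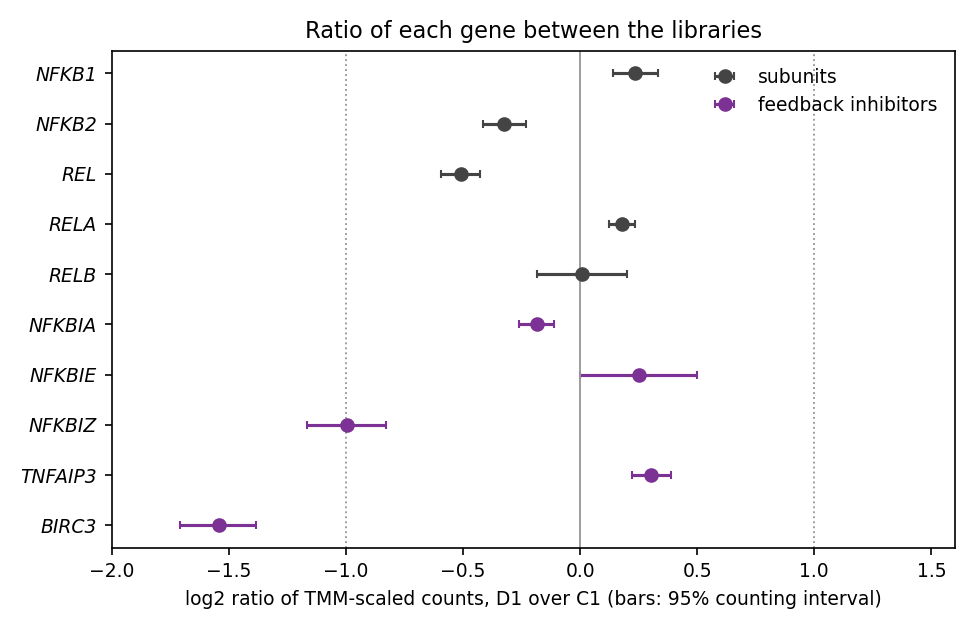
Log2 ratio of TMM-scaled counts, D1 over C1, for each of the 10 genes, with the 95% counting interval as a bar and dotted lines at 2-fold. BIRC3 at -1.54 lies beyond the lower line and NFKBIZ at -0.996 lies almost on it, while the 5 subunits lie between -0.51 and 0.24.

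Among the subunits, RELA carries a transactivation domain and forms the classical dimer with the product of NFKB1. RELA had 5267 reads in D1 and 4956 in C1, and 239 TPM in D1 and 236 TPM in C1. Its log2 ratio was 0.18 (0.12 to 0.23), and 0.06 with plain totals. NFKB1 had 1810 reads in D1 and 1636 in C1, and 51.23 TPM in D1 and 50.02 TPM in C1. Its log2 ratio was 0.24 (0.14 to 0.33), so the classical pair kept nearly the same proportion, with 0.344 reads of NFKB1 per read of RELA in D1 and 0.330 in C1. RELA lies on chromosome 11 from 65653601 to 65663857 and NFKB1 on chromosome 4 from 102501359 to 102617302.

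REL, a transactivating subunit best known in lymphocytes, was the lowest subunit by ratio. It had 1966 reads in D1 and 2981 in C1, and 19.44 TPM in D1 and 30.81 TPM in C1. The log2 ratio was -0.51 (-0.59 to -0.43). The gene lies on chromosome 2 from 60881574 to 60931612.

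NFKB2 and RELB form the dimer of the alternative pathway, in which the NFKB2 precursor is cut to its active form. NFKB2 had 1701 reads in D1 and 2265 in C1, and 63.98 TPM in D1 and 90.78 TPM in C1. Its log2 ratio was -0.32 (-0.41 to -0.23). RELB had 438 reads in D1 and 464 in C1, and 21.85 TPM in D1 and 24.61 TPM in C1. The log2 ratio of RELB was 0.01 (-0.18 to 0.20), and its sign depended on the scaling, with -0.11 under plain totals and -0.17 in the deposited TPM. NFKB2 lies on chromosome 10 from 102394110 to 102402529 and RELB on chromosome 19 from 45001464 to 45038192.

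The order of the levels by TPM differed between the libraries mainly through BIRC3, NFKBIZ and REL. In D1 it ran RELA, NFKBIA, NFKB2, TNFAIP3, NFKB1, RELB, REL, NFKBIE, NFKBIZ and BIRC3. The neighbours NFKB2 and TNFAIP3, RELB and REL, and NFKBIE and NFKBIZ had counting intervals that overlapped there. In C1 it ran NFKBIA, RELA, NFKB2, TNFAIP3, NFKB1, REL, NFKBIZ, RELB, BIRC3 and NFKBIE. Overlap in C1 held for NFKBIA and RELA, for TNFAIP3 and NFKB1, for NFKBIZ and RELB, and for RELB and BIRC3. BIRC3 was the lowest of the 10 in D1, and NFKBIE was the lowest in C1.

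**Figure D2:**
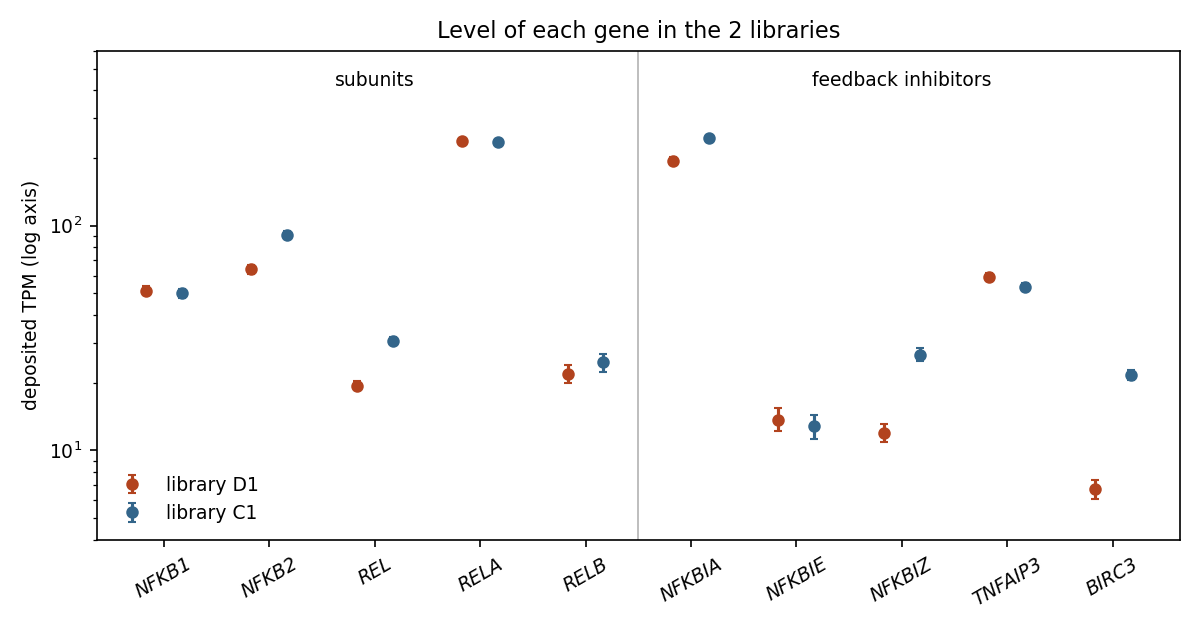
Deposited TPM of each gene on a log axis, library D1 to the left of library C1, with bars for the 95% Poisson counting interval. RELA and NFKBIA lie highest, between 194 and 245 TPM, and the widest gaps between the libraries are those of BIRC3 (6.70 and 21.69 TPM) and NFKBIZ (11.97 and 26.70 TPM).

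Ratios between genes of the same library do not depend on how the libraries are scaled. The 5 inhibitors summed to 6265 reads in D1, beside 11182 reads for the 5 subunits, a ratio of 0.560. In C1 they summed to 7801 reads beside 12302 for the subunits, a ratio of 0.634. The ratio in D1 was thus 0.884 times that in C1 (exact conditional 95% counting interval 0.847 to 0.922). On the TPM scale the ratio was 0.722 in D1 and 0.832 in C1. These sums follow the grouping of the genes and do not measure how strongly NF-kappaB was inhibited, since NFKBIZ works with it at some promoters. The sum hides the parting of the inhibitors, because NFKBIA made up 68.0% of the inhibitor TPM in D1 and 68.2% in C1. The share of TNFAIP3 was 20.7% in D1 and 14.8% in C1, and that of BIRC3 was 2.35% in D1 and 6.04% in C1. The share of NFKBIZ was 4.19% in D1 and 7.43% in C1.

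Read for read against RELA, the subunit with the steadiest TPM, BIRC3 and NFKBIZ stood lowest. Dividing by RELA keeps the order of the genes, so this restates the ratios above. BIRC3 per RELA in D1 was 0.303 times its value in C1 (0.269 to 0.341), and NFKBIZ per RELA was 0.443 times (0.391 to 0.501). REL per RELA was 0.621 times (0.579 to 0.665), NFKB2 0.707 times (0.656 to 0.761) and NFKBIA 0.778 times (0.729 to 0.830). RELB, NFKB1, NFKBIE and TNFAIP3 lay between 0.888 and 1.09 times, and of these only the interval of TNFAIP3 (1.02 to 1.17) left out 1. Among all 45 pairs, 13 changed their ratio at least 2-fold, and all 13 held BIRC3 or NFKBIZ. That follows from the single ratios and is not a further result, since the other members lay between -0.51 and 0.30. RELA made up the largest part of the subunits, with 60.4% of subunit TPM in D1 and 54.6% in C1. NFKB2 made up 16.2% in D1 and 21.0% in C1, and NFKB1 per NFKB2 in D1 was 1.47 times its value in C1 (1.34 to 1.62).

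The other negative regulators did not share one direction. Of these 18 genes, 17 passed the filter, none reached 2-fold, 9 lay above 0 and 8 below. Over all genes past the filter, 2.4% were at least 2-fold higher, 4.54% at least 2-fold lower and 49% below 0. The split by sign was thus close to that of all genes. TNIP1, a partner of the TNFAIP3 protein that binds ubiquitin, was the highest, with 3018 reads in D1 and 1612 in C1 and a log2 ratio of 0.99 (0.91 to 1.08). The ubiquitin ligase gene ITCH had a ratio of 0.56. RNF11, another partner of TNFAIP3 and ITCH, had 1680 reads in D1 and 2974 in C1 (-0.73), and CYLD, an enzyme that removes ubiquitin chains, had -0.57. The list median of 0.07 was close to the 0.01 of all genes, and plain totals turned it to -0.05.

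On the list of kinases that release NF-kappaB and their partners, all but 1 gene differed less than 2-fold. IKBKB, an IkappaB kinase gene, was not on this list. Of 10, none was 2-fold higher and MAP3K8 was at least 2-fold lower, beside 2.4% and 4.54% of all genes past the filter. It encodes a kinase held by the NFKB1 precursor until a signal frees it. MAP3K8 had 105 reads in D1 and 240 in C1, a log2 ratio of -1.10 (-1.45 to -0.77). TAB2, an adaptor of the kinase MAP3K7, had a ratio of 0.66, IKBKE, an IkappaB kinase of the antiviral response, -0.52, and MAP3K14, the kinase of the alternative pathway, 0.26. The list median was 0.15, with 7 members above 0 and 3 below, beside 49% of all genes below 0. In the deposited TPM the list median was -0.01. MAP3K8 was under 10 CPM in D1.

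Among 14 adaptors and ubiquitin enzymes, IRAK2 alone reached 2-fold, beside 4.54% of all genes lower and 2.4% higher. This adaptor of the interleukin-1 and Toll-like receptors had 202 reads in D1 and 652 in C1, a log2 ratio of -1.60 (-1.84 to -1.37), close to that of BIRC3. IRAK1, the kinase of the same complex, had 3479 reads in D1 and 2603 in C1 and lay on the other side at 0.51 (0.43 to 0.58). The receptor adaptors TRADD and TICAM1 had ratios of 0.43 and 0.31. The list median was 0.08, and -0.04 with plain totals.

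The ligands and receptors that switch the pathway on went both ways. Of the 14 past the filter, 2 were at least 2-fold higher and 1 was at least 2-fold lower, beside 2.4% and 4.54% of all genes. The cytokine gene IL1B had 1138 reads in D1 and 524 in C1 (1.21). TNFRSF1A, the main receptor of tumour necrosis factor, had 3146 reads in D1 and 1661 in C1 and a ratio just past 2-fold at 1.01 (0.93 to 1.10), which fell short of it with plain totals. LTB, a lymphotoxin chain that signals through LTBR to the alternative pathway, had 211 reads in D1 and 454 in C1 and a ratio of -1.01 (-1.26 to -0.78). TNFRSF1B had 11 reads in D1 and 22 in C1, too few to place its ratio (-0.88, interval -2.10 to 0.20). TNF itself stayed under the filter with 2 reads in D1 and 8 in C1. The list median was 0.08, and -0.03 with plain totals.

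Chemokine and cytokine targets were mostly lower in D1. Of 13 past the filter, 7 were at least 2-fold lower, 1 was at least 2-fold higher and 12 had a ratio under 0. Over all genes past the filter the shares were 4.54%, 2.4% and 49%. This list, like the others, was chosen with earlier results of these data known, so the comparison with all genes is descriptive only. The median was -1.21, and 0.01 over all genes. These counts depend in part on the filter, since 4 of the 13 passed it through library C1 alone (CXCL3, CXCL10, CSF3 and IL23A) and CSF2 passed through D1 alone. With a filter on the mean of both libraries, chosen after seeing the data, 6 of 12 were at least 2-fold lower at 1 CPM (median -1.08) and 2 of 5 at 10 CPM, where CXCL8 and LIF were the 2. Over all genes these counts were 518 of 12939 at 1 CPM and 166 of 9612 at 10 CPM. LIF, a cytokine of the IL6 family, had 545 reads in D1 and 2314 in C1 (-1.995, interval -2.13 to -1.86), and the neutrophil chemokine CXCL8 had 783 in D1 and 1933 in C1 (-1.21). IL6 had 51 reads in D1 and 184 in C1 (-1.75), and CXCL10, an interferon-responsive chemokine, had 3 in D1 and 43 in C1 (-3.55, interval -6.08 to -2.11). CCL20, CXCL3 and IL23A were the other lower members, with 31, 10 and 15 reads in D1 against 84, 27 and 39 in C1. The growth factor CSF2 was the higher member, with 39 reads in D1 and 15 in C1 (1.44). CXCL5 had 0 reads in D1, which allows up to 3, and 8 in C1.

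The remaining targets were lower by less, with 5 of 19 at least 2-fold lower, 1 at least 2-fold higher and 17 below 0 (median -0.54). The shares over all genes past the filter were 4.54%, 2.4% and 49%. The complement genes C3 and CFB had ratios of -1.47 and -1.13. PTGES, the synthase of prostaglandin E, had 558 reads in D1 and 1611 in C1 (-1.44). The protease gene MMP9 had 30 reads in D1 and 92 in C1 (-1.51), and the survival gene BCL2A1 8 in D1 and 21 in C1 (-1.25). CD83, a surface protein of activated immune cells, was the higher member, with 161 reads in D1 and 52 in C1 (1.71). BCL2A1 passed the filter through C1 alone. With the filter on the mean of both libraries, 4 of 18 were at least 2-fold lower at 1 CPM and 3 of 12 at 10 CPM. Over all genes it was 518 of 12939 and 166 of 9612. With plain totals 8 of the 19 were at least 2-fold lower, beside 742 of the 13225 genes past the filter.

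**Figure D3:**
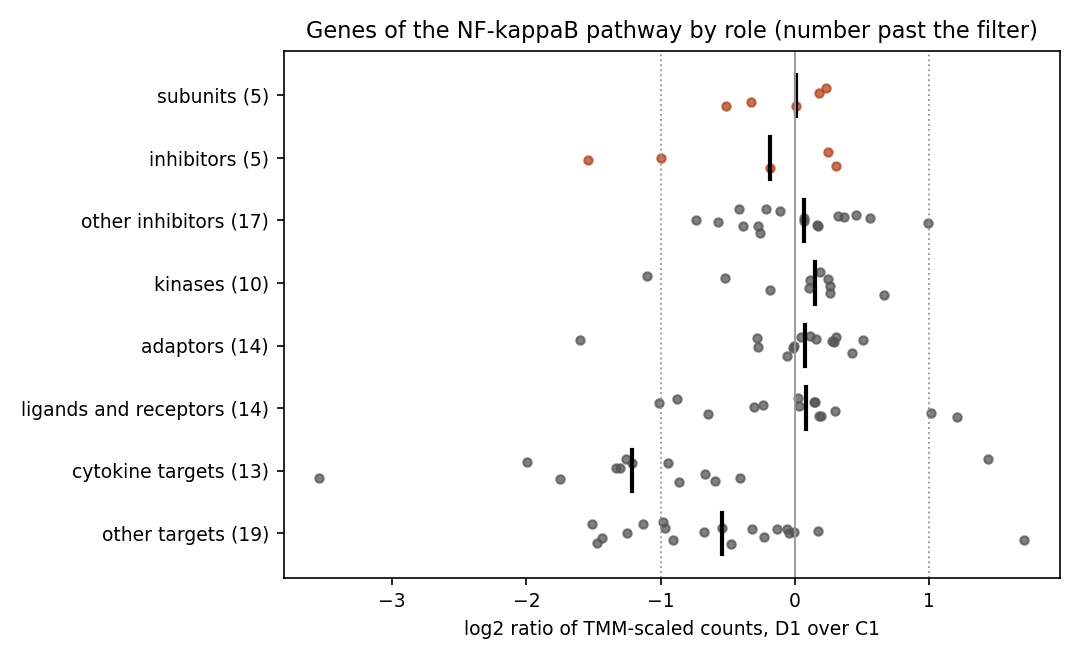
Log2 ratio, D1 over C1, of every gene past the filter (points) in 8 lists of the pathway by role, with the list median as a black bar and dotted lines at 2-fold. The cytokine targets (median -1.21) and other targets (median -0.54) lie to the left of 0, as does the smaller median of the inhibitors (-0.18). The medians of the subunits, other inhibitors, kinases, adaptors and receptors lie between 0.01 and 0.15. Of the cytokine targets, 4 passed the filter through C1 alone and 1 through D1 alone. With a filter on the mean of both libraries their median was -1.08 at 1 CPM and -0.86 at 10 CPM.

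The surroundings of the members were also compared, over measured genes that passed the filter and lay within 500 kb, counted between the nearest ends of the genes. Of the 9 neighbours of BIRC3, 8 lay below 0 and 3 were at least 2-fold lower, with a median of -0.66. Over all genes past the filter, 49% lay below 0 and 4.54% were at least 2-fold lower. The adjacent paralog BIRC2 had 1172 reads in D1 and 1664 in C1 (-0.42, interval -0.52 to -0.31), and YAP1, a coactivator of growth genes, had 3433 in D1 and 4642 in C1 (-0.35). The 3 lower neighbours were the collagenase and stromelysin genes MMP1 (-1.48), MMP10 (-1.34) and MMP3 (-1.25). BIRC3 was lower than BIRC2 beyond counting error, since their intervals did not overlap, but how shared reads were split between these genes was not tested. The medians around the other 9 members lay between -0.19 and 0.20, and the 7 neighbours of NFKBIZ had a median of -0.12 with none at 2-fold. The part of gene position in the ratio of BIRC3 was not tested.

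**Figure D4:**
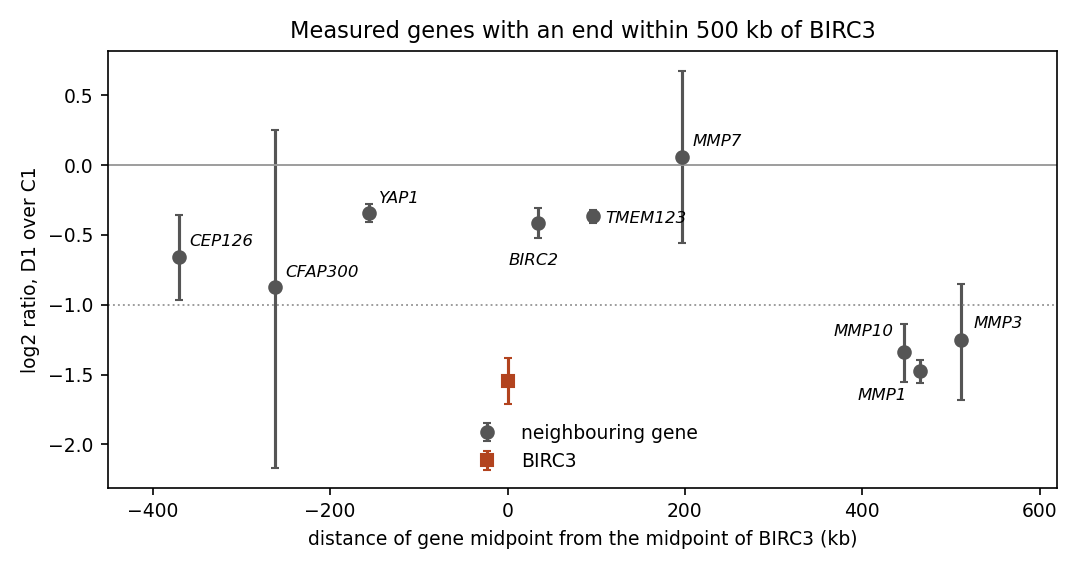
Log2 ratio, D1 over C1, of the genes whose nearest end lies within 500 kb of BIRC3, placed by the distance between gene midpoints (511 kb for MMP3), with bars for the 95% counting interval and a dotted line at 2-fold lower. BIRC3 at -1.54 lies below its adjacent paralog BIRC2 at -0.42, and the matrix metalloprotease genes MMP10, MMP1 and MMP3 lie between -1.48 and -1.25.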

How the data were processed

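Per the file headers, the authors deposited estimated counts for each gene without normalization; 48.2% of values in D1 and 48.9% in C1 were not whole. The deposited TPM and FPKM values are the authors', per the file headers. Bowtie2, RSEM and the hg38 build are named in the submitters' processing notes; no version or annotation is given there. Codes D1 and C1 could not be tied to a condition from the labels.

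Counts were rounded and scaled by TMM in edgeR 4.0.16 (R 4.3.3), with factors of 0.960 for D1 and 1.04 for C1; DESeq2 1.42.0 size factors were an alternative. Ratios were taken after adding 0.5 counts. Intervals are exact (Clopper-Pearson, conditional odds ratio or Poisson) at 95% and cover counting error only, as each group has 1 library. Reads carry no molecular identifiers here, so duplicates are not set apart and the counting error may be larger than the intervals. Each group having 1 library, conditions could not be tested and no p-value is given. The procedure was tested on simulated data.

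The members and lists were chosen with earlier results of these data known. Named from each list were the 4 members with the largest absolute ratio past the filter (1 CPM in at least 1 library) and every member at least 2-fold different; TNF, CXCL5 and the neighbours of BIRC3 were named after their values were seen. CCL2, VCAM1 and 7 marker genes were not analysed here. With 2 libraries a pattern is a single ratio, so no genes are named for likeness. Of 16951 genes, 16883 matched RefSeq (GRCh38.p14) by gene identifier, which gave the coordinates; promoter sequences are from RefSeq. As read, 11 of 13 member windows matched a GENCODE transcript of the gene in the same orientation.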

Additional observations from a re-analysis of the deposited data

How the results depend on the processing

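No paired analysis was possible because each group has 1 library, and no replicate could be left out. The number of members at least 2-fold lower was 1 with TMM and became 2 with plain library totals, DESeq2 size factors, deposited TPM and deposited FPKM, because NFKBIZ at -0.996 crossed the threshold (to -1.005 with DESeq2 size factors and -1.12 with FPKM). It stayed at 1 with 5 counts added and with unrounded counts. Genes at least 2-fold different numbered 1040 higher and 1671 lower with no expression filter, and 171 higher and 216 lower at 10 CPM. The inhibitor to subunit ratio in D1 over that in C1, 0.884 as summed reads, was 0.784 with geometric means and 0.756 with RELA alone in the denominator; it lay within its counting interval with TPM, without NFKBIA and with the IkappaB proteins alone. BIRC3 lay between -1.69 and -1.53 under every setting run. Genes with few reads, such as CXCL10 and BCL2A1, are limited by depth, and culture to culture variation is not measured.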

Other observations

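Across the pathway lists, the kappaB match in RefSeq promoter windows was held by 8 of the 10 cytokine targets that had a window, beside 7 of 8 for the subunits and inhibitors. It was held by 9 of 18 other negative regulators, 6 of 14 other targets, 2 of 10 on the kinase list, 2 of 13 adaptors and 1 of 14 ligands and receptors, beside 16.9% of the table's genes with a window. The median log2 ratio of the cytokine targets was -1.21, or -1.08 with the filter on the mean of both libraries at 1 CPM. That of the other targets was -0.54 and that of the ligands and receptors 0.08. For the subunits, where 3 of 4 held a match, it was 0.01, and for the inhibitors, where 4 of 4 did, -0.18. For the other negative regulators it was 0.07, for the kinase list 0.15 and for the adaptors 0.08. These are counts of letters in windows, and whether the match goes with the ratio was not tested.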
